A study of Arabidopsis thaliana with 6 samples.

Results

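The 10 genes described here mark the phosphate starvation response of Arabidopsis thaliana and were followed in seedlings labelled as overexpressing the short open reading frame sORF2146. The members were chosen by locus, as every non-control probe named for SPX1 (AT5G20150), SPX2 (AT2G26660), SPX3 (AT2G45130), PHT1;1 (AT5G43350), PHT1;4 (AT2G38940), MGD2 (AT5G20410), MGD3 (AT2G11810), SQD1 (AT4G33030), SQD2 (AT5G01220) or PLDZ2 (AT3G05630). This gave 10 genes with 1 probe each, of 35475 gene identifiers on the array and 23394 genes tested. The first group was 3 arrays of sORF2146ox transgenic plants, and the second was 3 arrays of plants transformed with the empty pMDC32 vector. Total RNA came from seedlings 14 days after sowing, grown on diluted solid MS medium in a cycle of 14 hours light and 10 hours dark, and the labels mention no change of phosphate supply in either group. No probe bears the name sORF2146, so the overexpression itself was not checked here. Both groups are transgenic, and the series describes the 3 samples of each as biological replicates. The promoter that drives sORF2146, the accession of the plants and the number of transgenic lines behind each group are not given in the sources used here. The series asks for the physiological role of sORF2146, and the markers show whether transcripts of a general phosphate response differed between the groups.

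Plants short of phosphate change the activity of a large set of genes through PHR1, a MYB transcription factor. SPX proteins such as SPX1 bind inositol pyrophosphates when phosphate is plentiful and hold PHR1 back, and PHR1 in turn activates SPX1 and SPX3, so their transcripts rise under starvation. The same response raises phosphate uptake carriers, replaces membrane phospholipids with galactolipids and sulfolipids, and releases phosphate from lipids, RNA and organic esters. Several of its genes are most active in roots, and seedlings mix roots and shoots, so fewer cells of a type and less RNA per cell cannot be told apart in these data.

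Values below are scaled log2 signals, the log2 of the processed signal minus the 75th percentile of the same array, so 0 is the level of that percentile. All 10 genes were well above background on all 6 arrays and none was saturated. Levels of different genes are not compared, because each probe has its own brightness. The 3 arrays of a group shared one slide and the groups lay on different slides, so a slide effect and a group effect cannot be told apart. On each array 65.3% to 68.8% of the 35635 probes exceeded background clearly, and precision is limited by having 3 arrays per group. All 13 leaf markers, among them genes of the small subunit of Rubisco, were measured, and their summed signal in multiples of the 75th percentile was 796 to 886 in sORF2146ox and 863 to 892 in the vector control. All 18 root markers were measured too. Of 4 flower markers only AP3 was tested. It entered through the vector control arrays and differed by -1.91 (SE 0.82, limma adjusted p = 0.178). PI was well above background on 4 arrays, AG on 2 and AP1 on 0. Of 4 seed markers 2 were tested, and CRA1 and OLEO1 were well above background on 0 and 1 arrays. EM6 was well above background on all 6 arrays, with overlapping groups (limma adjusted p = 0.478). EM1 was so on 0 of 3 sORF2146ox arrays and on 3 of 3 vector control arrays, where it read 0.80, -1.77 and -5.47. Its limma adjusted p of 0.0595 rests on sORF2146ox values at background. The part of seed and flower genes in the marker values was not tested.

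None of the 10 markers passed the test between groups (limma, Benjamini-Hochberg adjustment over all 23394 genes, threshold 0.05), where 5.17% of all genes passed in either direction and 2.51% passed with a higher level in sORF2146ox. That split was 588 higher and 621 lower, and it moved with the scaling, to 105 higher and 1806 lower with spike-in scaling and to 779 higher and 488 lower with quantile normalization. Of the 10, 9 had a higher mean in sORF2146ox, where 54.0% of all genes did, and the median difference of the 10 was 0.90 on the log2 scale against 0.03 over all genes tested. For 4 of them, PHT1;1, MGD2, MGD3 and SQD2, every sORF2146ox array lay above every vector control array, which was so for 23.0% of all genes. The same 4 had 95% intervals above 0 and an unadjusted p under 0.05, which 16.5% of all genes reached with a higher level in sORF2146ox. The median depended on single arrays, and was 0.61 without sORF2146ox replicate 2 and 1.41 without sORF2146ox replicate 1. No marker passed without any one of the 6 arrays, and 9 of the 10 were higher in sORF2146ox under all 17 alternatives run.

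**Figure D1:**
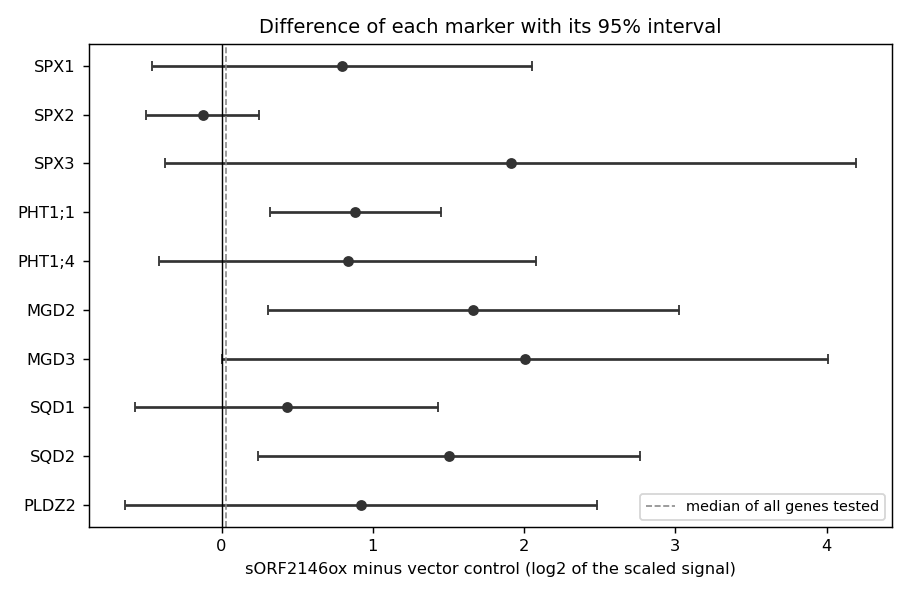
Difference of each of the 10 markers, sORF2146ox minus vector control, in log2 units of the scaled signal (x axis), with its limma 95% interval (bars, n = 3 arrays per group). The intervals of PHT1;1, MGD2, MGD3 and SQD2 lie above 0, that of MGD3 starting at 0.0061, and the other 6 include 0; none passed after adjustment.

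SPX1, SPX2 and SPX3 encode small proteins with an SPX domain, and SPX1 and SPX2 are inhibitors of PHR1. SPX1 read 4.42, 5.95 and 5.23 in sORF2146ox replicates 1, 2 and 3, against 4.37, 3.70 and 5.15 in the vector control replicates. The groups overlapped, since sORF2146ox replicate 1 lay below vector control replicate 3, and the difference of 0.80 had a 95% interval of -0.46 to 2.05 (SE 0.51, n = 3 per group, limma adjusted p = 0.326). Without sORF2146ox replicate 2 it was 0.42, and without vector control replicate 2 it was 0.44. SPX3, whose transcript is among the more strongly starvation-induced of the family, read -2.51, 0.38 and -2.12 in sORF2146ox, against -3.40, -4.42 and -2.16 in the vector control. Among the sORF2146ox arrays replicate 2 stood apart, 2.69 above the mean of the other 2. The SPX3 difference was 1.91 with an interval of -0.37 to 4.19 (SE 0.93, limma adjusted p = 0.219), and it was 1.01 without sORF2146ox replicate 2 (limma adjusted p = 0.419). SPX2 was the one marker with a lower mean in sORF2146ox, at -1.42, -1.03 and -1.38 there and at -1.06, -1.37 and -1.04 in the vector control. Its values covered 0.39 from the lowest to the highest of the 6 arrays, the narrowest range of the 10 markers, against a median range of 0.56 over all genes tested. The SPX2 difference was -0.12 with an interval of -0.50 to 0.25 (SE 0.15, limma adjusted p = 0.606).

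PHT1;1 and PHT1;4 encode high-affinity phosphate carriers of the plasma membrane, which take up phosphate at the root surface. PHT1;1 read 5.09, 5.42 and 4.96 in sORF2146ox, against 3.87, 4.30 and 4.65 in the vector control. The groups did not overlap, and no marker had closer overexpressor arrays apart from SPX2. PHT1;1 differed by 0.88, a fold of 1.84 with an interval of 1.25 to 2.73 (SE 0.23, limma adjusted p = 0.0757), which was the smallest adjusted p of the 10 markers. PHT1;4 read 1.69, 3.38 and 2.87 in sORF2146ox, against 1.37, 1.58 and 2.48 in the vector control. Here sORF2146ox replicate 1 lay below vector control replicate 3, and the difference of 0.83 had an interval of -0.41 to 2.08 (SE 0.51, limma adjusted p = 0.305). That difference was 0.47 without sORF2146ox replicate 2. Both genes were lowest on vector control replicate 1, where the summed signal of the 18 root markers was also lowest of the 6 arrays. That sum was 23.0, 23.7 and 20.6 times the 75th percentile in sORF2146ox replicates 1, 2 and 3, and 20.0 and 23.4 times in vector control replicates 2 and 3. On vector control replicate 1 the sum was 51.9% of the mean of the other 5 arrays, the root markers deviated from their means by a median of -0.82, and 13 of 18 had their lowest value there. Of the 18 root markers 16 had a higher mean in sORF2146ox, where 54.0% of all genes did. Their median difference was 0.39, and their part in the PHT1 values was not tested. None of the 18 passed the test over all genes.

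PHT1;1 lies beside PHT1;6, PHT1;3 and PHT1;2 in the RefSeq gene table of assembly TAIR10.1, and PHT1;1 and PHT1;2 are close copies. PHT1;2 read 0.45, 0.81 and 0.21 in sORF2146ox, against -0.78, -0.38 and 0.02 in the vector control. Around their own means the 2 genes differed by at most 0.09 on any array. PHT1;2 differed by 0.87 between groups (SE 0.25, limma adjusted p = 0.0877). Probe sequences were not analysed here, so the 2 probes may read overlapping pools of transcript and are not separate evidence. PHT1;2 still counts among the transporter genes below, so those counts are not independent of the markers. PHT1;3, whose gene lies between them in that table, was dim on all 6 arrays and was not tested.

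MGD2 and MGD3 encode the galactolipid synthases of the outer plastid envelope that make monogalactosyldiacylglycerol under phosphate shortage. MGD3 read -1.61, 0.77 and -0.68 in sORF2146ox, against -1.98, -3.88 and -1.68 in the vector control. The lowest overexpressor array stood 0.07 above the highest control array, so the groups separated by little. MGD3 had the largest difference of the 10 markers, 2.01, a fold of 4.02 with an interval of 1.00 to 16.1 (SE 0.81, limma adjusted p = 0.161). Its rank depended on single arrays. Without vector control replicate 2 it was 1.32, below MGD2 at 1.44 and SPX3 at 1.36, and SPX3 was also larger without sORF2146ox replicate 3 (2.26 against 2.09) or vector control replicate 3 (2.49 against 2.42). MGD2 read -2.07, 0.07 and -1.21 in sORF2146ox, against -2.60, -3.18 and -2.42 in the vector control. The nearest arrays of the 2 groups were 0.35 apart, the widest such gap among the lipid genes of the set. The MGD2 difference was 1.66, a fold of 3.17 with an interval of 1.24 to 8.13 (SE 0.55, limma adjusted p = 0.113), and 1.095 without sORF2146ox replicate 2. MGD1, the main synthase of the inner envelope, which is not a starvation gene, differed by 0.31 (SE 0.07, limma adjusted p = 0.0619).

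SQD1 and SQD2 carry out the steps that make the plastid sulfolipid, SQD1 forming the sulfosugar donor and SQD2 attaching it to the lipid. SQD2 read 0.15, 1.84 and 0.73 in sORF2146ox, against -0.59, -1.23 and 0.03 in the vector control. All 3 overexpressor arrays lay above all 3 control arrays, with 0.12 between the nearest pair. The SQD2 difference was 1.50, a fold of 2.84 with an interval of 1.18 to 6.80 (SE 0.51, limma adjusted p = 0.119). SQD1 read 2.90, 4.41 and 3.76 in sORF2146ox, against 3.45, 2.85 and 3.48 in the vector control. Its lowest overexpressor array lay below 2 of the 3 control arrays, and the difference of 0.43 had an interval of -0.57 to 1.43 (SE 0.41, limma adjusted p = 0.499). It was 0.07 without sORF2146ox replicate 2. PLDZ2 encodes a phospholipase D that breaks down phospholipids in starved plants. It read -0.78, 1.51 and 0.42 in sORF2146ox, against -0.27, -1.28 and -0.07 in the vector control. The groups overlapped in the same way as for SQD1, and the difference of 0.92 had an interval of -0.64 to 2.48 (SE 0.63, limma adjusted p = 0.357). The PLDZ2 value was 0.36 without sORF2146ox replicate 2 and 0.55 without vector control replicate 2.

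**Figure D2:**
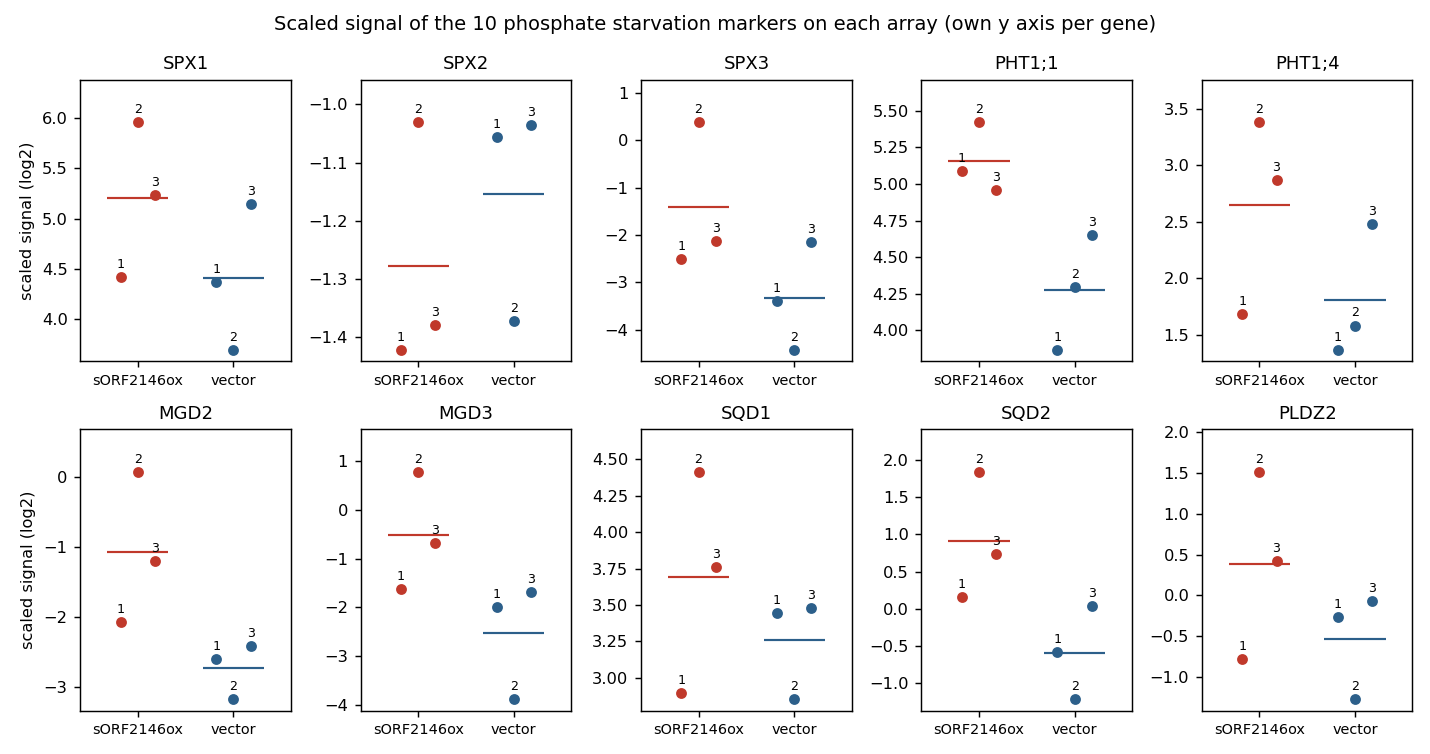
Scaled log2 signal (y axis, one scale per gene) of the 10 markers on the 3 sORF2146ox arrays (red, left) and the 3 vector control arrays (blue, right); numbers give the replicate and lines the group means. Replicate 2 is the highest sORF2146ox array and replicate 3 the highest vector control array in all 10 panels.

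The markers varied together within the groups. Replicate 2 was the highest of the 3 sORF2146ox arrays for 10 of 10 markers, where 32.8% of all genes had it highest, and it was the highest of all 6 arrays for the same 10, where 17.8% of all genes did. Replicate 3 was the highest vector control array for 10 of 10, against 35.0% of all genes, and replicate 2 the lowest vector control array for 8 of 10, against 22.7% of all genes. Vector control replicate 2 was the lowest of all 6 arrays for 7 markers, against 12.1% of all genes. For SPX2 the lead of sORF2146ox replicate 2 over vector control replicate 3 was in the third decimal. The sORF2146ox replicate 2 array was highest of the 6 for 8 of 10 markers when arrays were scaled on spike-in RNA, where 1.31% of all genes had it highest, the exceptions being SPX2 and PHT1;1. With the 75th percentile taken over detected probes it was highest for 9 of 10 markers and for 15.4% of all genes. The median deviation of the 10 markers from each gene's mean over the 6 arrays was -0.19, 1.37 and 0.46 in sORF2146ox replicates 1, 2 and 3, and -0.58, -1.15 and 0.01 in the vector control replicates. The array order within sORF2146ox, replicate 2 above replicate 3 above replicate 1, held for 9 of 10 markers, the exception being PHT1;1, and for 17.5% of all genes.

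The spread within groups was wide for most members. The median SD of the 10 markers was 0.86 in sORF2146ox and 0.61 in the vector control, against 0.12 and 0.17 over all genes tested. Apart from SPX2 and PHT1;1, between 0.27% and 2.31% of all genes tested had a larger SD among the sORF2146ox arrays than a given marker. Among the vector control arrays 2.23% to 22.2% of genes had a larger SD than the markers other than SPX2. The root markers shared this array order only in part. Their median deviations were 0.27, 0.35 and 0.02 in sORF2146ox and -0.82, -0.03 and 0.14 in the vector control. By these medians they too were highest on sORF2146ox replicate 2 and, within the vector control, on replicate 3. They were lowest on vector control replicate 1, and the phosphate markers on vector control replicate 2. The leaf markers stayed within 0.09 of their means by the median on every array.

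**Figure D3:**
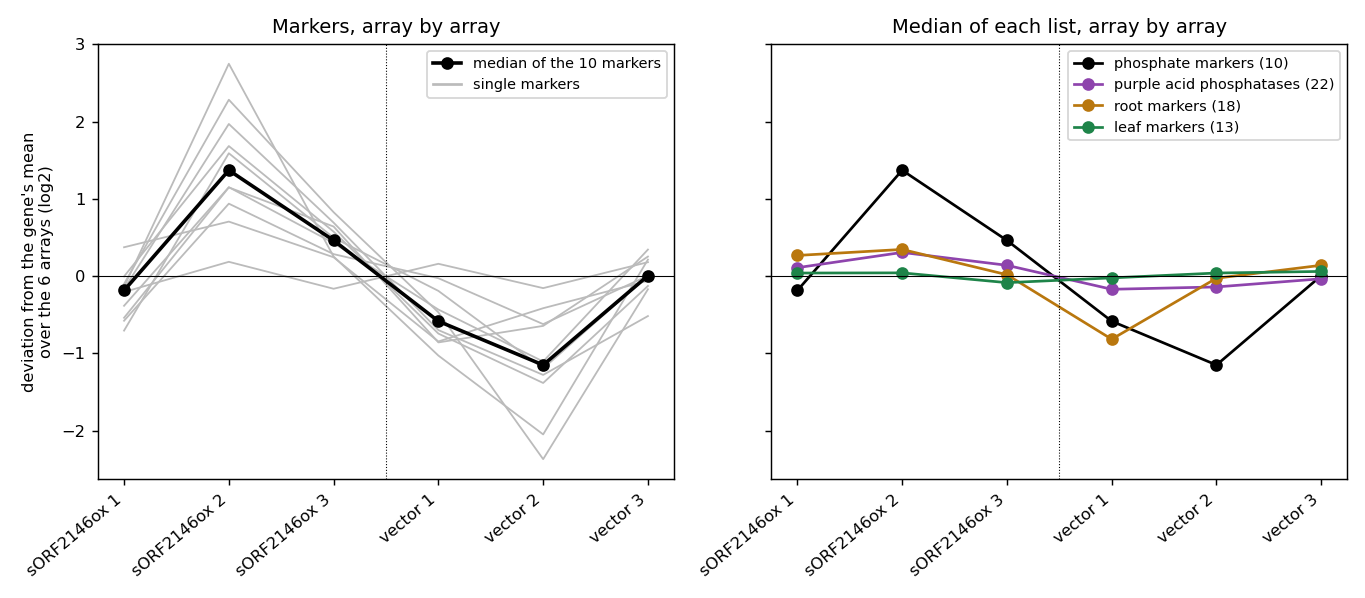
Deviation of each gene from its mean over the 6 arrays (y axis, log2), by array (x axis); lines join the values of one gene or list and the arrays have no order. Left, the 10 markers (grey) and their median (black), which runs from -1.15 on vector control replicate 2 to 1.37 on sORF2146ox replicate 2; right, the medians of the marker, purple acid phosphatase, root and leaf lists.

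The genes closest in pattern to MGD3, which had the largest difference when all 6 arrays were used, were sought among 9101 tested genes with a symbol, by the root mean square distance of their deviations from the gene mean over the 6 arrays. PS2, a pyrophosphatase gene induced by phosphate starvation, came first at a distance of 0.26, followed by CYP93D1 at 0.42 and SPX3 at 0.43. CYP93D1 was dim, between -9.20 and -4.42 over the 6 arrays. MGD2 and SQD2 were closer to each other, at 0.22, than MGD2 was to MGD3, at 0.50. These distances describe the same 6 arrays and carry no test.

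The other genes of the phosphate pathway were taken from 4 lists with 47 loci, of which 44 were tested. None of the 44 rose and 2 fell, LPR1 and LPR2, and the median of the 44 was 0.15. Of the 44, 28 were higher and 16 lower in sORF2146ox, where 54.0% of all genes were higher. IPS1 and GDPD3 entered the test only through the sORF2146ox arrays, and WRKY42, MYB62, PHT1;6 and PHT1;7 only through the vector control arrays. Such entry favoured a higher level in that group, and these genes are named here for it. Of 19 regulators 0 rose and 2 fell, with a median of -0.13. LPR1 and LPR2 encode ferroxidases that stop growth of the primary root when the root tip meets low phosphate. LPR1 read -3.89, -4.08 and -4.10 in sORF2146ox, against -3.28, -3.49 and -3.37 in the vector control, and differed by -0.64 (SE 0.10, limma adjusted p = 0.0354). LPR2 read -3.04, -2.66 and -2.56 in sORF2146ox, against -0.94, -1.68 and -1.61 in the vector control, and differed by -1.35 (SE 0.24, limma adjusted p = 0.0434). All 3 overexpressor arrays lay below all 3 control arrays for both genes, where 17.6% of all genes did so and 2.65% passed the test with a lower level. LPR1 passed in 8 and LPR2 in 9 of 17 alternatives, and both calls were lost without any one array other than vector control replicate 1, with adjusted p between 0.0537 and 0.133 in limma. WRKY75, a transcription factor of the starvation response, differed by -1.46 (SE 0.35, limma adjusted p = 0.0674), and PHO2, which marks phosphate carriers for degradation, by -0.69 (SE 0.18, limma adjusted p = 0.0772). PHR1, named here after its values were seen, differed by 0.15 with an interval of -0.03 to 0.33 (limma adjusted p = 0.218). IPS1, a noncoding RNA of the response that is named here after its values were seen, read -1.43, 1.03 and -1.38 in sORF2146ox, against -3.56, -6.94 and -2.62 in the vector control, where it was well above background on 2 of 3 arrays. It entered the test through the sORF2146ox arrays and did not pass (limma adjusted p = 0.117).

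Among 10 tested transporter genes 0 passed, 7 were higher and 3 lower, where 54.0% of all genes were higher, and the median was 0.14. PHT1;9, a root phosphate carrier, differed by 1.23 (SE 0.33, limma adjusted p = 0.0792). PHO1, which exports phosphate into the xylem, differed by -0.40 (SE 0.12, limma adjusted p = 0.0995), and PHT2;1, a plastid carrier, by 0.14 (SE 0.10, limma adjusted p = 0.386). The 12 tested lipid genes had a median of 0.36, with 11 higher, against 54.0% of all genes, 1 lower and 0 past the test. The 11 include GDPD3, which entered only through the sORF2146ox arrays. In that list GDPD6, a glycerophosphodiester phosphodiesterase, differed by 1.55 (SE 0.41, limma adjusted p = 0.0767) and NPC4, a phospholipase C, by 1.49 (SE 0.46, limma adjusted p = 0.100). In both, every sORF2146ox array lay above every vector control array, as for 5 of the 12 lipid genes and 23.0% of all genes. PAH2, a phosphatidate phosphatase, differed by 0.29 (limma adjusted p = 0.133). In the 3 scavenging genes, PECP1, a phosphatase of phosphocholine and phosphoethanolamine, differed by 2.29 (SE 0.93, limma adjusted p = 0.163), PS2 by 1.64 (SE 0.76, limma adjusted p = 0.202) and RNS1, a ribonuclease, by 0.01 (SE 0.76, limma adjusted p = 0.995). All 3 were highest on sORF2146ox replicate 2, as were 23 of the 44 genes and 17.8% of all genes.

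The purple acid phosphatases, which free phosphate from organic esters, stood beside the markers as follows. Of 28 list members 22 were tested, and 3 passed with a higher level in sORF2146ox and 0 with a lower one, against 2.51% and 2.65% of all genes. A higher mean in sORF2146ox was seen for 17 of the 22, against 54.0% of all genes, and the median difference was 0.28. PAP14, PAP24 and PAP25, of which PAP14 is named here after its values were seen, entered the test only through the sORF2146ox arrays, so their selection favoured a higher level there. All 3 are among the 17 higher, and PAP24 and PAP25 are among the 3 that passed. The shares over all genes are therefore no measure for these counts. With only probes well above background on all 6 arrays, 19 were tested, 2 passed with a higher level and the median was 0.21. PAP25 read -3.35, -1.71 and -3.93 in sORF2146ox, against -7.52, -7.90 and -7.15 in the vector control, where 0 of 3 arrays were well above background. Setting the control at the dimmest probe well above background on each array gave a bound of 16.6-fold. A higher floor would give a smaller bound. Its adjusted p of 0.0276 in limma rests on control values at background. With background subtraction and an offset of 50 the fitted PAP25 difference was 1.44 (limma adjusted p = 0.0583). PAP24 read -3.24, -2.07 and -3.82 in sORF2146ox, against -6.91, -7.50 and -5.87 in the vector control, where 2 of 3 arrays were well above background. Its fitted difference of 3.72 (SE 0.58, limma adjusted p = 0.0357) uses a control array at background. PAP13 read -3.54, -3.97 and -3.80 in sORF2146ox, against -5.07, -4.45 and -4.83 in the vector control, and rose by 1.01 (SE 0.19, limma adjusted p = 0.0472). For PAP13 all sORF2146ox arrays lay above all vector control arrays, as for 23.0% of all genes. The groups of PAP24 and PAP25 separated likewise, but their entry through the sORF2146ox arrays favoured this, so that share is no measure for them.

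PAP17, a purple acid phosphatase commonly used as a starvation marker, read 1.51, 3.28 and 2.65 in sORF2146ox, against 2.12, 1.52 and 2.74 in the vector control. The groups overlapped, and the difference of 0.35 had an interval of -0.93 to 1.64 (SE 0.52, limma adjusted p = 0.669). It turned to -0.05 without sORF2146ox replicate 2. AT1G25230, which the gene table does not name, differed by 0.66 (SE 0.13, limma adjusted p = 0.0516) and passed in 5 of 17 alternatives. The calls of PAP13, PAP24 and PAP25 depended on the processing, since PAP13 passed in 6 of 17, PAP24 in 8 of 16 and PAP25 in 9 of 16 alternatives. None of the 3 passed with normexp background correction, with no filter on dim probes or with the replicate block. With normexp the fitted values were 0.47 for PAP13, 1.31 for PAP24 and 1.36 for PAP25 (limma adjusted p = 0.840, 0.449 and 0.485). The calls also rested on single arrays: PAP13 was lost without any one of the 6 arrays, PAP24 passed only without vector control replicate 3, and PAP25 was lost without sORF2146ox replicate 1 or 3 or vector control replicate 2. The bound of PAP25 was 10.6-fold without sORF2146ox replicate 2.

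**Figure D4:**
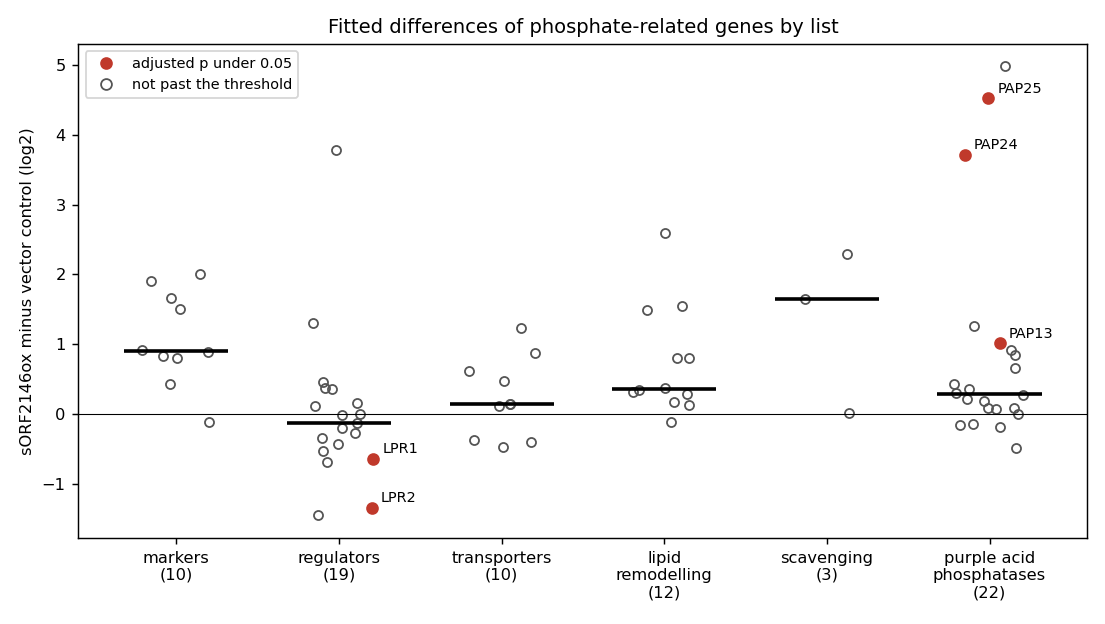
Fitted log2 differences, sORF2146ox minus vector control (y axis), of the 10 markers, of the other phosphate genes by list and of the purple acid phosphatases (x axis, number tested in brackets); filled points passed the test, open points did not, and lines are list medians. The filled points are LPR1 and LPR2 below 0 and PAP13, PAP24 and PAP25 above it; the fitted value of PAP25 is drawn although its control level is only a bound.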

How the data were processed

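Total RNA of 3 sORF2146ox and 3 vector control samples was labelled with Cy3 and hybridised to one-colour Agilent arrays. The spot intensity values came from Agilent Feature Extraction 11.5.1.1, per the submitters' processing notes and the file headers, as processed signals that are not scaled between arrays. The flags for outliers and for signals well above background hold 0 or 1, which are other values than intensities per the file headers. A deposited table of normalized intensity, for which the authors' method is not given in the sources used here, served as an alternative.

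The log2 processed signal minus the 75th percentile of the array's non-control probes was tested with limma 3.58.1 in R 4.3.3 (lmFit and eBayes, Benjamini-Hochberg over 23394 genes, threshold 0.05). Outlier spots were missing, a gene was its brightest probe by mean, and a probe entered if well above background on all 3 arrays of a group. A gene dim on a whole group has only a bound, the brighter mean against the dim group's mean. For the dim group each array's value was raised, where lower, to the dimmest probe well above background there. The test was tried on simulated data. Summaries used pandas 2.3.3 and plots matplotlib 3.10.9.

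The members and all lists were chosen with earlier results of these data known. Beside the 10 members the text names, of each other list, the genes that passed and those of smallest adjusted p up to 4 in all, PAP17, PAP24 and PAP25, and the 3 named genes nearest in pattern to the member of largest difference. Symbols and neighbours came from the RefSeq table of TAIR10.1, which held all 10 members. The array design names another build, so no coordinates are printed. Promoter, protein and probe sequences were not used here, so a planned promoter motif search was not run. The 17 alternatives covered background correction (normexp used median signals in place of mean signals), scaling, the filter, probe summary, variance model, a block for replicate number and the loss of any 1 array. The bound of PAP25 without each array was added after seeing the data.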

Additional observations from a re-analysis of the deposited data

How the results depend on the processing

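No marker passed in 16 of 17 alternatives. With spike-in scaling 2 passed, MGD2 at 1.40 (limma adjusted p = 0.0277) and SQD2 at 1.24 (limma adjusted p = 0.0473), and why they passed was not tested. The median of all genes moved to -0.23 and that of the markers to 0.64. Both scalings subtract a single value per array, so the distance of 0.87 between these medians stayed the same by construction. The median of the markers lay between 0.61 and 1.41 when single arrays were left out, with 0 markers past the test each time. The labels do not say that replicate numbers pair the samples. Over 23388 genes, the deviations of same-numbered samples from their group means correlated at -0.0857, -0.000468 and -0.0226. With the replicate block 0 markers passed, the median was 0.90, and 14 of all genes passed, against 1209 without it. Counts over all genes were 4 with normexp, 188 with no filter on dim probes, 1911 with spike-in scaling (105 higher, 1806 lower), 1547 with background subtraction (1013 higher, 534 lower), 1267 with quantile normalization (779 higher, 488 lower), 1262 in the deposited table (775 higher, 487 lower), 1707 with the trended variance, and 35 to 1191 without single arrays. Of the purple acid phosphatases 0 passed with normexp, with no filter on dim probes or with the replicate block, where adjusted p for PAP13, PAP24 and PAP25 in limma was 0.145, 0.135 and 0.119. Under normexp replicate 3 was the highest vector control array for 8 of 10 markers.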
